A study of Mus musculus with 12 samples.

Results

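The 10 genes described here encode the cyclins, cyclin-dependent kinases (CDKs) and CDC25 phosphatases that act from S phase to mitosis. They are Ccna2, Ccnb1, Ccnb2, Ccne1, Ccne2, Cdk1, Cdk2, Cdc25a, Cdc25b and Cdc25c, taken by symbol from an expression table of 24091 genes. RNA sequencing was performed on 12 mouse samples in 4 groups of 3. The tumors were medulloblastomas, embryonal tumors of the cerebellum, from Brca2-mut;Trp53-mut mice GB344, GB359 and GB370, and a sample labelled normal adjacent cerebellum was taken from each of the same mice. The 6 control cerebella were tumor-free and came from Brca2-mut;Trp53-WT mice GB361, GB508 and GB512 and from Brca2-WT;Trp53-mut mice GB517, GB519 and GB520. The Brca2 mutation is a deletion of part of the gene in the developing central nervous system by Cre under the human GFAP promoter, so it is not present in every cell of the tissue, while the Trp53 mutation is global. The study gives the controls as age-matched to the tumors, and the ages are not in the labels. The control genotypes differ at both genes, so the effects of Brca2 and Trp53 cannot be told apart between them.

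A CDK is inactive without a cyclin. Cyclin E pairs with CDK2 at entry into S phase, cyclin A2 pairs with CDK2 in S phase and with CDK1 later, and the B-type cyclins pair with CDK1 to drive mitosis. The WEE1 and MYT1 kinases hold CDK1 and CDK2 inactive by phosphorylation, and the CDC25 phosphatases remove these phosphates. Cyclin A2, the B-type cyclins, CDK1 and CDC25C are known for transcripts that are kept low in resting cells and rise as cells divide, whereas cyclin E and CDC25A are regulated at entry into S phase. Cerebellar granule cell progenitors divide in large numbers after birth and then stop, and most cells of the adult cerebellum are postmitotic granule neurons.

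Levels are given in TPM, which corrects the abundance of a transcript for its length and for the size of the library, so that genes can be compared with each other. Each sample summed to between 999792 and 999876 TPM, and between 15088 and 15803 genes per sample were at 1 TPM or more. Sequencing depth cannot be read from TPM and is unknown here. Brca2 was at 8.22 to 14.6 TPM in tumors, 4.52 to 6.98 TPM in adjacent cerebella, 3.4 to 3.79 TPM in Brca2-mut;Trp53-WT controls and 3.24 to 4.40 TPM in Brca2-WT;Trp53-mut controls. Trp53 was at 124 to 130.5 TPM in tumors, 66.1 to 85.0 TPM in adjacent cerebella, 33.1 to 37.2 TPM in the libraries labelled Brca2-mut;Trp53-WT and 47.1 to 49.4 TPM in those labelled Brca2-WT;Trp53-mut. The Trp53 level was therefore not lower in the libraries labelled Trp53-mut, but TPM summed per gene includes transcripts that lack the deleted part, so neither gene checks a genotype label. Summed markers of granule neurons were 305 to 665 TPM in tumors and 1880 to 2445 TPM in control cerebella. Neurod1 in this list did not follow the sum, at 262 to 533 TPM in tumors and 297 to 418 TPM in controls. The summed Purkinje cell markers were 49.9 to 266 TPM in tumors and 4263 to 7236 TPM in controls, and the astrocyte and Bergmann glia markers 241 to 450.4 TPM and 1251 to 1528 TPM. Gfap in the last list overlapped, at 79.3 to 193 TPM in tumors and 117 to 181 TPM in controls. The defining granule cell progenitor gene Atoh1 was at 119, 244 and 319 TPM in the tumors and at 0.212 TPM or less in the controls. It was at 59.4, 50.5 and 4.997 TPM in the adjacent cerebella of GB344, GB359 and GB370, above every control, so these samples, labelled normal, carried a progenitor gene that was near 0 in the tumor-free cerebella. Of the other markers in its list, Barhl1, Gli1 and Mki67 were also higher in every tumor than in any control. Zic1 and Zic2 were not. Zic1 was at 454 to 671 TPM in tumors and 475 to 666 TPM in controls, and Zic2 at 188 to 236 TPM and 229 to 285 TPM. The control GB512 also stood apart from its group for several members, and values are given with and without it. The choroid plexus markers separated the control genotypes, at 3962 to 5183 TPM in Brca2-WT;Trp53-mut cerebella and 17.7 to 877 TPM in Brca2-mut;Trp53-WT cerebella. In bulk tissue, fewer cells of a type and less RNA per cell cannot be told apart.

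The promoters of 4 members are shown: Cdk1 and Ccne1, which had the highest and the lowest ratio of tumor to control TPM, and the B-type cyclins Ccnb1 and Ccnb2. Each is the 120 bases before the transcription start in RefSeq, on the GRCm38.p6 build, written on the strand of the gene. Capitals mark the CCAAT box (CCAAT, or ATTGG on the other strand), which the NF-Y factor binds, the cell cycle homology region (CHR, TTTGAA), which the MuvB complex binds, and the E2F core on either strand (TTCCCGC, with the variants TTCGCGC as well as TTGCCGC and, lastly, TTGGCGC).
Cdk1 (chr10:69352913-69353032, minus strand): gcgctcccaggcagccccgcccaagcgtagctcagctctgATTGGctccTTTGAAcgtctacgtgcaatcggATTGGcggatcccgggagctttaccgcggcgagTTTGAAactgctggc
Ccnb1 (chr13:100786487-100786606, minus strand): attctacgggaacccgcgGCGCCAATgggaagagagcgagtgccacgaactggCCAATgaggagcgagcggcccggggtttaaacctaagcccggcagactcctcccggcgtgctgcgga
Ccnb2 (chr9:70421555-70421674, minus strand): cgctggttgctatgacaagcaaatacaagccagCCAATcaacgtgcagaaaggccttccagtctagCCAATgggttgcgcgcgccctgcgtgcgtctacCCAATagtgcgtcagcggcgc
Ccne1 (chr7:38107491-38107610, minus strand): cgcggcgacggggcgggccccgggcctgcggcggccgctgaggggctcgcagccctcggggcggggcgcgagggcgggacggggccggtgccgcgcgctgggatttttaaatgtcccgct

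These sequences differ in their CCAAT boxes. The Ccnb2 promoter held 3 CCAAT boxes, starting 87, 54 and 21 bases before the transcription start, with 33 bases between neighbouring starts. Ccnb1 held 2 CCAAT boxes with starts 32 bases apart, and the E2F core of this promoter shares bases with the CCAAT box farther from the start. Cdk1 held 2 CCAAT boxes with starts 32 bases apart within the printed bases, and CHR matches starting 71 and 15 bases before the start. Ccne1 held none of these motifs. Both strands were searched in 300 bases, 250 before the start and 50 from the start on, in which Cdk1 had 3 CCAAT boxes, 2 CHR matches and 2 E2F cores and Ccnb2 had 2 CHR matches. In these windows Cdc25a had 2 CCAAT boxes and 2 overlapping E2F cores, Cdk2 had 1 CCAAT box and 3 E2F cores, and Cdc25b had 1 CCAAT box. A table of 32851 mouse promoter windows of the same length had at least 1 CCAAT box in 37.4%, at least 1 CHR in 17.9% and at least 1 E2F core in 9.57%. The spacing was chosen for description after the sequences were seen: 2 CCAAT boxes with starts 32 or 33 bases apart were found in 0.606% of all windows and in the windows of Ccnb1, Ccnb2 and Cdk1. The table covered 7 of the 10 members, without Ccna2, Ccne2 and Cdc25c. A match is a description of the letters and does not show that a factor binds there.

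The comparison of tumor with control cerebellum asks which genes distinguish the medulloblastoma from tumor-free cerebellum of the same age. All 10 members were higher in every tumor than in any of the 6 control cerebella, as were 28.3% of all genes tested, and 9 of them rose by the test. The mitotic members, Cdk1, Ccna2, Ccnb1, Ccnb2 and Cdc25c, and the S phase kinase Cdk2 rose by 3.68 to 5.51 on the log2 scale. Cdc25b, Cdc25a and Ccne2 rose by 1.01 to 1.73, and Ccne1 differed by 0.99 and did not reach the fold threshold. The test was limma on log2(TPM + 1) over 16241 genes, with p-values adjusted by Benjamini and Hochberg's method over all of them. Calls required an adjusted p below 0.01 together with a log2 fold change of 1 or more in either direction. By this rule 14.4% of all genes tested were called higher and 21.5% lower. The 10 members had a median log2 fold change of 3.88, against −0.11 for all genes tested. The added 1 makes the log2 fold change of a gene near 0 TPM smaller than the ratio of its TPM. The labels name a different mouse for each sample of a group and give no litters, so p-values measure the spread between these mice.

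**Figure D1:**
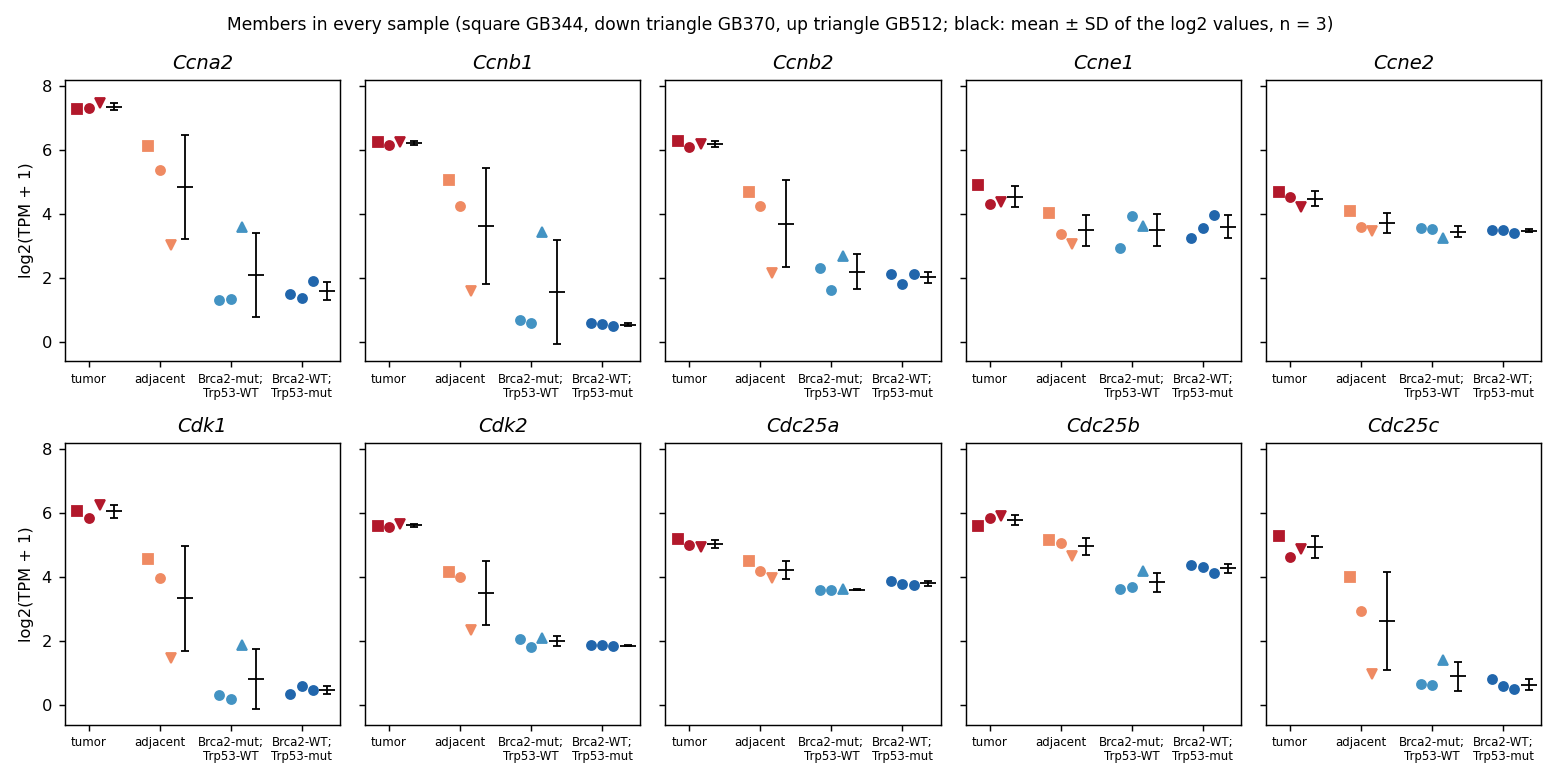
Level of each member in every sample as log2(TPM + 1), by group, with the mean and SD of 3 samples in black. The tumors lie above all other samples for the 10 members, the adjacent cerebellum of GB344 lies above those of GB359 and GB370, and GB512 lies apart from the other controls for Ccna2, Ccnb1 and Cdk1.

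Cyclin A2 had the highest TPM of the members in the tumors. Ccna2 (Entrez 12428, chr3:36564865-36573038) was at 155, 157 and 177 TPM in the tumors of GB344, GB359 and GB370. It was at 1.503, 1.55 and 11.2 TPM in the Brca2-mut;Trp53-WT cerebella GB361, GB508 and GB512 and at 1.86, 1.60 and 2.75 TPM in the Brca2-WT;Trp53-mut cerebella GB517, GB519 and GB520. The tumors varied little among themselves, while 1 control, GB512, was far above the other 5. The tumor mean was 163 ± 11.9 TPM (SD, n = 3) and the control mean 3.41 ± 3.84 TPM (SD, n = 6), a ratio of 47.8, or 88.0 without GB512. The log2 fold change was 5.51 (SE 0.453, limma adjusted p = 1.583e-06).

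The B-type cyclins were lower than Ccna2 in the tumors and near each other. Ccnb1, which encodes the main partner of CDK1 at mitotic entry (Entrez 268697, chr13:100778739-100786486), was at 75.5, 70.7 and 75.0 TPM in tumors. It was at 0.613, 0.498 and 9.83 TPM in the Brca2-mut;Trp53-WT cerebella and at 0.508, 0.469 and 0.410 TPM in the Brca2-WT;Trp53-mut cerebella. GB512 alone was above 1 TPM among the controls. The Ccnb1 mean ratio of tumor to control was therefore 35.9 with GB512 and 148 without it, and the log2 fold change was 5.16 (SE 0.59, limma adjusted p = 1.963e-05). Ccnb2, which encodes another B-type cyclin (Entrez 12442, chr9:70407689-70421554), was at 77.4, 67.8 and 71.4 TPM in tumors. In the controls Ccnb2 was at 3.93, 2.07, 5.40, 3.36, 2.505 and 3.35 TPM, in the order given for Ccna2. Unlike Ccnb1, it was above 2 TPM in every control, and its log2 fold change was 4.08 (SE 0.207, limma adjusted p = 5.995e-08). The levels of the 2 genes overlapped in the tumors and did not overlap between the 5 controls other than GB512.

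The E-type cyclins, which start S phase with CDK2, were the members closest to their control level. Ccne1 (Entrez 12447, chr7:38097984-38107490) was at 29.4, 18.9 and 20.0 TPM in tumors. The controls spread from 6.75 TPM in GB361 to 14.7 TPM in GB520, with a median of 11.2 TPM. The groups did not overlap, but the log2 fold change was 0.99 (SE 0.236, limma adjusted p = 0.003386), just under the threshold of 1. Under median-of-ratios scaling it was 1.10 and under quantile normalization 1.15, both past the threshold. Ccne2 (Entrez 12448, chr4:11190433-11204779) was at 24.7, 21.9 and 17.7 TPM in tumors and between 8.52 and 10.8 TPM in the controls, with a median of 10.4 TPM. Its log2 fold change of 1.01 (SE 0.123, limma adjusted p = 3.13e-05) was just past the threshold and was 0.97 without GB512, 0.91 without tumor GB344 and 0.99 without tumor GB359. Both E-type cyclins therefore lay at the fold threshold, and the call separated them by less than their errors.

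Cdk1 had the highest ratio of tumor to control TPM of the members. Cdk1 (Entrez 12534, chr10:69335146-69352912) was at 66.3, 56.8 and 75.6 TPM in tumors. It was at 0.261, 0.158 and 2.72 TPM in the Brca2-mut;Trp53-WT cerebella and at 0.282, 0.526 and 0.405 TPM in the Brca2-WT;Trp53-mut cerebella. The controls other than GB512 were below 1 TPM. The ratio of the means was 91.3, or 203 without GB512, and the log2 fold change was 5.41 (SE 0.333, limma adjusted p = 1.966e-07). Cdk2 (Entrez 12566, chr10:128697938-128705051) was at 47.8, 47.2 and 50.4 TPM in tumors. In the controls Cdk2 was at 3.26, 2.56, 3.35, 2.67, 2.72 and 2.59 TPM. Both groups were narrow, GB512 was only just above GB361, and the log2 fold change was 3.68 (SE 0.111, limma adjusted p = 7.537e-09).

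The CDC25 phosphatases differed in their control levels. Cdc25a, best known for activating CDK2 at entry into S phase (Entrez 12530, chr9:109875518-109893895), was at 35.6, 31.2 and 29.9 TPM in tumors and between 11.1 and 13.9 TPM in the controls. Its log2 fold change was 1.34 (SE 0.104, limma adjusted p = 1.024e-06). Cdc25b, known for starting the activation of CDK1 (Entrez 12531, chr2:131186436-131198511), was at 48.0, 56.6 and 59.2 TPM in tumors and between 11.6 and 20.0 TPM in the controls. It rose by 1.73 (SE 0.179, limma adjusted p = 9.149e-06). Cdc25c, a mitotic phosphatase of CDK1 (Entrez 12532, chr18:34732993-34751564), was at 38.7, 24.1 and 28.8 TPM in tumors. In the controls Cdc25c was at 0.599, 0.546, 1.67, 0.782, 0.525 and 0.418 TPM. It was near the bottom of the member levels in controls and rose by 4.17 (SE 0.22, limma adjusted p = 7.344e-08). Cdc25a and Cdc25b were thus above 10 TPM in every control, and Cdc25c was not above 2 TPM in any.

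**Figure D2:**
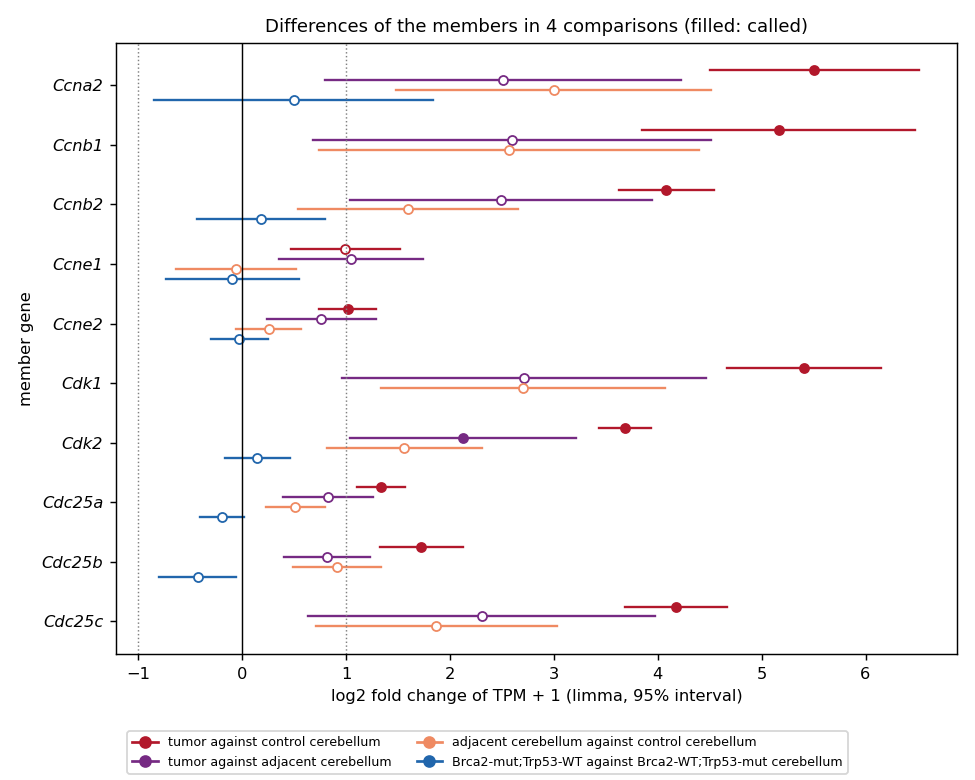
Log2 fold change of each member (x axis, on TPM + 1) with its 95% interval from limma in the 4 comparisons, filled where called. In tumor against control cerebellum 9 of 10 members are filled, and in tumor against adjacent cerebellum Cdk2 alone is filled. Ccnb1, Cdk1 and Cdc25c have no point in the comparison of control genotypes because too few samples reached 1 TPM.

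The order of the levels was different in the 2 tissues. In the tumors Ccna2 was highest and did not overlap the next gene. Ccnb1, Ccnb2, Cdk1, Cdc25b and Cdk2 followed, each overlapping its neighbour in level, and Cdk2 did not overlap Cdc25a. Cdc25a, Cdc25c, Ccne1 and Ccne2 formed the lowest stretch, again with overlapping neighbours. In the 6 controls Cdc25b, Cdc25a, Ccne1 and Ccne2 were highest, with overlapping neighbours, and Ccne2 did not overlap the next gene, Ccnb2. The lowest were Ccnb1, Cdc25c and Cdk1.

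Within each family the make-up moved with these levels. Ccne1 and Ccne2 together held 12.52% ± 2.27 (SD, n = 3) of the summed cyclin TPM in tumors and 73.5% ± 15.5 (SD, n = 6) in controls. Without GB512, in which they held 43.0%, the control share was 79.6% ± 4.52 (SD, n = 5). Ccna2 held 46.2% ± 3.12 (SD, n = 3) in tumors and 9.74% ± 7.17 (SD, n = 6) in controls. Of the summed Cdk1 and Cdk2 TPM, Cdk1 made up 57.6% ± 2.72 (SD, n = 3) in tumors and 16.2% ± 14.5 (SD, n = 6) in controls, or 10.5% ± 4.31 (SD, n = 5) without GB512. Cdc25c held 25.9% ± 5.19 (SD, n = 3) of the CDC25 sum in tumors and 2.61% ± 1.48 (SD, n = 6) in controls. Shares of transcripts say nothing about the amounts of protein or of complexes.

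**Figure D3:**
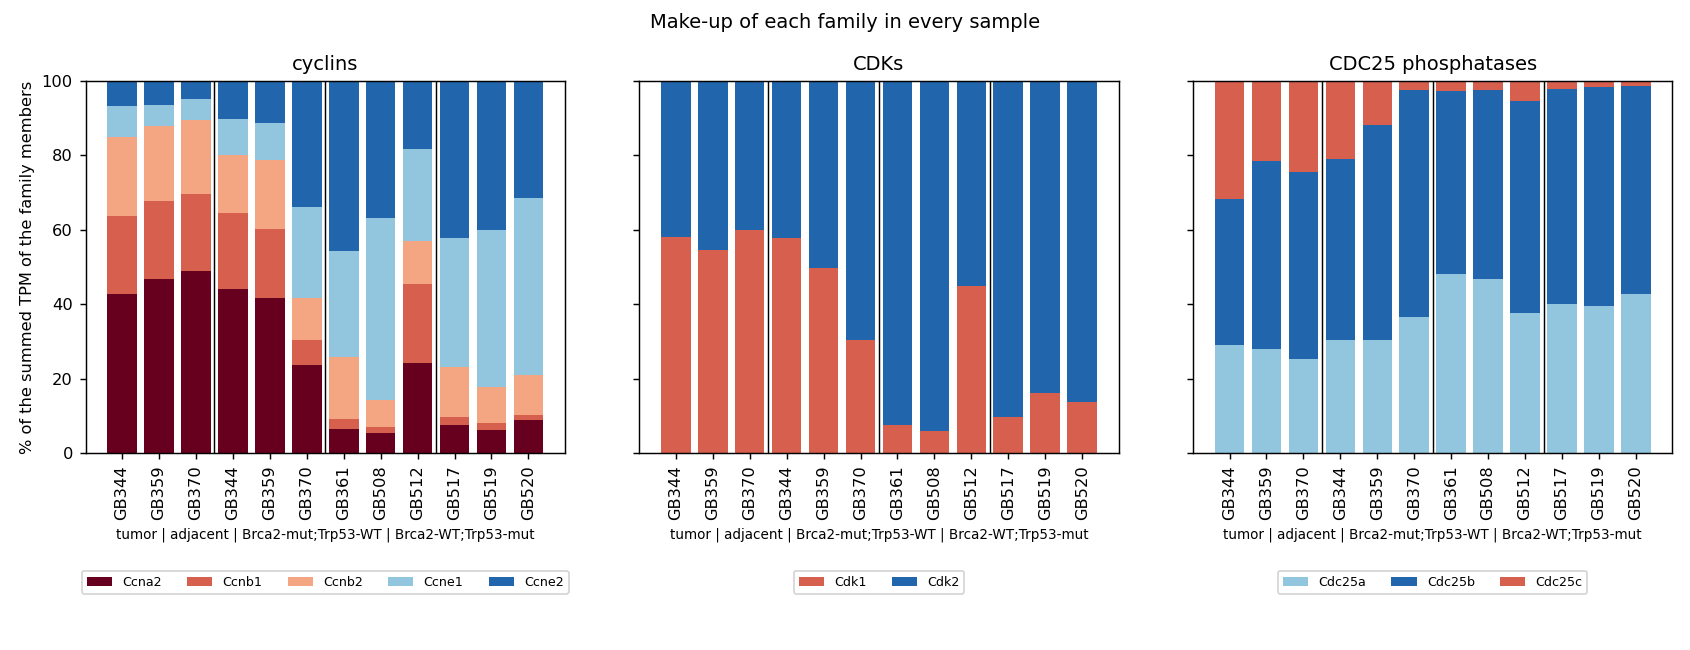
Share of each gene in the summed TPM of its family, as a stacked bar for every sample, with vertical lines between the groups. The E-type cyclins and Cdk2 fill most of the bars of the control cerebella other than GB512, while Ccna2, the B-type cyclins and Cdk1 fill most of the bars of the tumors.

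The comparison of tumor with adjacent cerebellum asks what distinguishes the tumor from tissue of the same animal. All 10 members were higher in every tumor than in any adjacent cerebellum, as were 23.7% of all genes tested, but only Cdk2 was called, with a log2 fold change of 2.12 (SE 0.457, limma adjusted p = 0.008845). Of all 15845 genes tested, 4.76% were called higher and 18.0% lower. With the mouse as a block Cdk2 was no longer called, at an adjusted p of 0.01135, and Ccne1 was, with a log2 fold change of 1.05 and an adjusted p of 0.007114. Without the block, the 9 members other than Cdk2 were not called. Ccna2 differed by 2.51 (limma adjusted p = 0.02547), Ccnb1 by 2.60 (limma adjusted p = 0.03345), Ccnb2 by 2.49 (limma adjusted p = 0.01432), Cdk1 by 2.71 (limma adjusted p = 0.02108) and Cdc25c by 2.31 (limma adjusted p = 0.03136). Cdc25a, at 0.82 (limma adjusted p = 0.009519), and Cdc25b, at 0.81 (limma adjusted p = 0.008475), passed the p threshold but not the fold threshold. The median of the members was 2.22, against −0.14 for all genes tested. Without the adjacent cerebellum of GB370, 5 members were called, without that of GB344, 4, and without that of GB359 or any 1 tumor, 0. The shares of all genes called in these fits were not determined. Median-of-ratios scaling called 1296 genes higher and 2476 lower, with 2 members higher, and quantile normalization called 1603 higher and 2192 lower, with 6 members higher.

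The adjacent cerebella differed from each other in the same order for every member. The adjacent cerebellum of GB344 was the highest of the 3 for 10 of 10 members, and that of GB370 the lowest for 10 of 10. The share of all genes with this order was not determined, so these counts describe the members only. Ccna2 was at 69.6, 40.3 and 7.16 TPM in the adjacent cerebella of GB344, GB359 and GB370. In the same order Ccnb1 was at 32.2, 17.96 and 2.003 TPM, and Cdk1 at 23.0, 14.8 and 1.79 TPM. For these 3 genes GB344 and GB359 lay above every control, and GB370 lay within the control range, which GB512 sets at its upper end. The other 5 controls reached at most 2.75 TPM for Ccna2, 0.613 TPM for Ccnb1 and 0.526 TPM for Cdk1, below GB370. Cdk2 was at 16.8, 15.0 and 4.11 TPM and Cdc25c at 15.1, 6.70 and 0.989 TPM. Cdc25b, at 35.1, 32.99 and 24.5 TPM, and Cdc25a, at 21.9, 17.2 and 14.6 TPM, stood above every control in all 3 adjacent cerebella.

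Against the 6 controls, 0 of the 10 members were called in the adjacent cerebella by limma, 8 had an unadjusted p under 0.05, and 3 (Cdk2, Cdc25a and Cdc25b) lay above the controls without overlap. Of all 16091 genes tested, 0.224% were called higher and 0.0124% lower, 34.5% had an unadjusted p under 0.05 in either direction and 11.7% lay above the controls without overlap. Without GB512, 7 members (Ccna2, Ccnb1, Cdk1, Cdk2, Cdc25a, Cdc25b and Cdc25c) and 14.1% of all genes lay above the other 5 controls without overlap. Median-of-ratios scaling called 51 genes higher and 7 lower, and quantile normalization 41 higher and 18 lower, with no member called by either. The members' log2 fold changes ranged from −0.06 for Ccne1 to 2.999 for Ccna2, with a median of 1.58 against 0.07 for all genes tested. Ccna2 had an adjusted p of 0.02317 in limma, Cdk1 of 0.02323, Cdk2 of 0.02009 and Cdc25b of 0.01842. Without the adjacent cerebellum of GB370, 7 members were called higher. The share of all genes called in that fit was not determined, so this count cannot be set against 0.224%. These comparisons share samples with that of tumor and control, so their values are not independent of it.

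The distance was also expressed per mouse, as the adjacent level above the control mean in percent of the tumor level above the control mean. The median over the members was 39.2% in GB344, with a range of 22.9% to 59.5%. In GB359 it was 24.5%, from −21.3% to 41.7%, and in GB370 1.53%, from −41.5% to 19.6%. Of the 10 members, 10 were above the highest control in GB344, 9 in GB359 and 3 in GB370, and without GB512 the counts were 10, 9 and 7. The share of all genes above the highest control in a single adjacent cerebellum was not determined, so these counts describe the members only. All 3 adjacent cerebella lay above the 6 controls for 11.7% of all genes tested, and for 14.1% without GB512. Cdc25b had the highest percentage in each mouse, and Ccne1 the lowest. Of the 6 granule cell progenitor markers, Atoh1, Barhl1, Gli1 and Mki67 followed the same order of the mice as the members in this percentage. In GB344, GB359 and GB370, Atoh1, the transcription factor of these progenitors, was at 49.9%, 20.7% and 1.54% by the same measure. Barhl1, another of their transcription factors, was at 55.6%, 28.6% and 3.53%, and the Hedgehog target Gli1 was at 39.8%, 24.6% and 2.69%. The proliferation marker Mki67 was at 48.7%, 23.1% and 1.99%. In TPM, Barhl1 was at 86.4, 106 and 17.9 in these adjacent cerebella, so GB359 and not GB344 was highest. The percentage was not determined for the other 2 markers. Zic2 was at 304, 331 and 370 TPM in the adjacent cerebella, above the tumors (188 to 236 TPM) and the controls (229 to 285 TPM), and Zic1, at 641, 638 and 614 TPM, lay within the range of the controls (475 to 666 TPM). The part of tumor cells within the adjacent tissue in these levels was not tested.

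**Figure D4:**
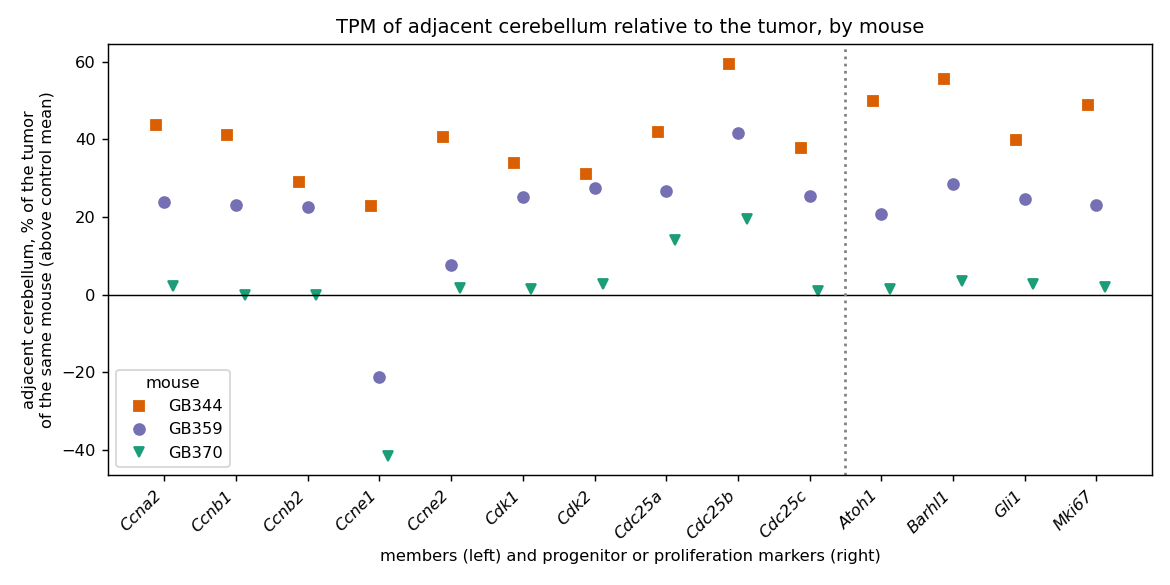
TPM of adjacent cerebellum above the control mean, in percent of the tumor of the same mouse (y axis), for the members and 4 marker genes (x axis). GB344 lies highest and GB370 lowest for every member and for the markers Atoh1, Barhl1, Gli1 and Mki67, and Ccne1 is below 0 in GB359 and GB370.

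Between the control genotypes, labelled Brca2-mut;Trp53-WT and Brca2-WT;Trp53-mut, 7 members had enough expression to be tested, and 0 were called by limma. Of all 15575 genes tested, 0.0128% were called higher and 0.0449% lower in the cerebella labelled Brca2-mut;Trp53-WT. Median-of-ratios scaling called 2 genes higher and 2 lower, and quantile normalization 2 higher and 1 lower, with no member called by either. Cdc25b had a log2 fold change of −0.43 (95% interval −0.80 to −0.06, limma adjusted p = 0.1993) and was the only member with an unadjusted p under 0.05, as 20.1% of all genes tested had. Cdc25a, at 11.2, 11.1 and 11.4 TPM against 13.9, 12.8 and 12.5 TPM, did not overlap, like 20.3% of all genes tested that were lower without overlap, with a log2 fold change of −0.20 (95% interval −0.41 to 0.01, limma adjusted p = 0.2772). Ccna2 had a log2 fold change of 0.49 (95% interval −0.85 to 1.84), which was −0.26 without GB512. When GB512 was left out, Ccne2 lay higher and Ccna2, Cdc25a and Cdc25b lower without overlap. The same held for 10.2% of all genes tested (higher) and 28.7% (lower). The intervals of Cdk2 (−0.17 to 0.46), Ccne2 (−0.30 to 0.25), Ccnb2 (−0.43 to 0.80) and Ccne1 (−0.73 to 0.54) leave out changes as large as the fold threshold. Those of Cdc25a and Cdc25b do so too, and that of Ccna2 does not. Ccnb1, Cdk1 and Cdc25c were at or above 1 TPM in GB512 alone.

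GB512 stood apart within its genotype. It was the highest of the 6 controls for Ccna2, Ccnb1, Ccnb2, Cdk1, Cdk2 and Cdc25c, and its Ccnb1 level was 19.7 times the mean of the other 5 controls. The ratio was 8.33 for Cdk1, 6.05 for Ccna2, 2.91 for Cdc25c and 1.78 for Ccnb2. It was between 0.82 and 1.21 for Cdk2, Cdc25a, Cdc25b, Ccne1 and Ccne2. Mki67 was at 5.63 TPM in GB512 and at 0.180 to 0.343 TPM in the other controls. Atoh1 was at 0.0689 TPM in GB512, within the range of the other controls, and 1 of 6 granule cell progenitor markers (Mki67) was highest in GB512. Of 5 microglia markers, 4 were highest in GB512, with a sum of 67.2 TPM against 42.4 to 55.8 TPM, and 1 of 5 lymphocyte markers, with a sum of 5.66 TPM against 2.70 to 5.22 TPM. The endothelium sum was also above every other control, at 218 TPM against 175 to 206 TPM, with 2 of 5 markers highest in GB512. Cdh5 in this list was lower in GB512 (8.66 TPM) than in the other controls (8.82 to 10.1 TPM). The oligodendrocyte sum was below every other control, at 2702 TPM against 3514 to 4219 TPM, although 2 of 6 markers were highest in GB512. The sums of the other 5 lists lay within the range of the other controls. The part of these cells in the member levels was not tested. Without GB512, 9 members were still called higher in tumors, with Ccne1 in and Ccne2 out.

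The regulators around the members were described from lists of their pathway. The list of mitotic entry held 11 genes for kinases, phosphatase subunits and regulators of these. Of them, 6 were called higher in tumors than in controls and 0 lower, with a median log2 fold change of 2.34. Of all genes tested, 14.4% were called higher and 21.5% lower. Aurka, a kinase of the spindle and of mitotic entry, rose by 4.25, Plk1, the polo-like kinase that activates CDC25C, by 3.92, and Chek1, the checkpoint kinase that restrains CDC25, by 3.35. Ppp2r2d, a regulatory subunit of the phosphatase that opposes CDK1, had a log2 fold change of 0.15 and was not called. Kinases that restrain the members and kinases that activate them were thus both among the genes that rose.

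Of 25 genes of the ubiquitin ligases that degrade cyclins and CDC25, 9 were called higher and 2 lower (1 lower without tumor GB344), with a median of 0.48. Among all genes tested 14.4% were called higher and 21.5% lower, so lower calls were not more frequent in this list. Ube2c, the ubiquitin-conjugating enzyme of the anaphase-promoting complex, rose by 4.52, its activator Cdc20 by 4.37, and its inhibitor Fbxo5 by 3.72. Fbxw7, the F-box protein that targets cyclin E, fell by 1.91 on the log2 scale, from 77.3 ± 6.94 TPM (SD, n = 6) in controls to 19.8 ± 1.51 TPM (SD, n = 3) in tumors. Btrc, an F-box protein for CDC25A and WEE1, fell by 1.37 on the log2 scale, and its tumor levels spread from 7.05 to 28.7 TPM. Skp1a, a shared subunit of these ligases, had a log2 fold change of −0.05 and was not called.

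The subunits that bind CDKs split within their list. The small CDK-binding proteins Cks2 and Cks1b rose by 5.03 and 4.71. Ccnh, the cyclin of the CDK-activating kinase, fell by 1.26 on the log2 scale, and its partners Cdk7 (−0.996) and Mnat1 (0.18) were not called, so that of 5 genes 2 were called higher and 1 lower, or 2 lower when tumor GB359 or the control GB508, GB512 or GB517 was left out. Of 14 genes of the DREAM, MuvB, FOXM1 and NF-Y transcription factors of cell division genes, 7 were called higher and 0 lower, with a median of 0.96. For both lists the shares over all genes tested were 14.4% called higher and 21.5% called lower. Foxm1, which encodes an activator of mitotic genes, rose by 5.18, Mybl2, the activating partner of MuvB, by 4.43, and Rbl1, a pocket protein of the DREAM repressor, by 2.17. The NF-Y subunit gene Nfyc had a log2 fold change of −0.06 and was not called, while Nfyb rose by 1.198.

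Of 22 genes of cyclins, CDKs and CDK5 activators outside the S-to-M set, 1 was called higher and 5 lower, with a median of −0.07, beside 14.4% of all genes called higher and 21.5% lower. This list holds neither the D-type cyclins nor Cdk4 and Cdk6, and Ccnf, counted with the ubiquitin ligases, rose by 2.32. With median-of-ratios scaling or quantile normalization 3 were lower, and without tumor GB344 0 were higher. The neuronal CDK5 activator Cdk5r2 fell by 4.28 on the log2 scale, from 94.7 ± 7.85 TPM (SD, n = 6) to 4.40 ± 2.57 TPM (SD, n = 3), Cdk18 fell by 2.82 and Cdk16 by 1.44. Cdk8, the kinase of the Mediator complex, rose by 1.14, and Cdk9, the transcription elongation kinase, had a log2 fold change of 0.01. Also listed were 3 paralogs, Ccna1 and Ccnb3 of cyclin members and Wee2 of the kinase gene Wee1. Ccna1, known for its role in male germ cells, rose by 2.43 to 5.09 ± 0.919 TPM (SD, n = 3), and Ccnb3 and Wee2 did not pass the filter on low values. In tumor against adjacent cerebellum the called genes of these lists were Lin9, Tfdp1, Rbl1 and Ccna1, which were higher, and Fbxw7, Cdk5r2, Cdk16 and Cdk18, which were lower. In that comparison 4.76% of all genes tested were called higher and 18.0% lower. No gene of the lists was called in the other comparisons by limma, where 0.224% and 0.0128% of all genes were called higher.

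**Figure D5:**
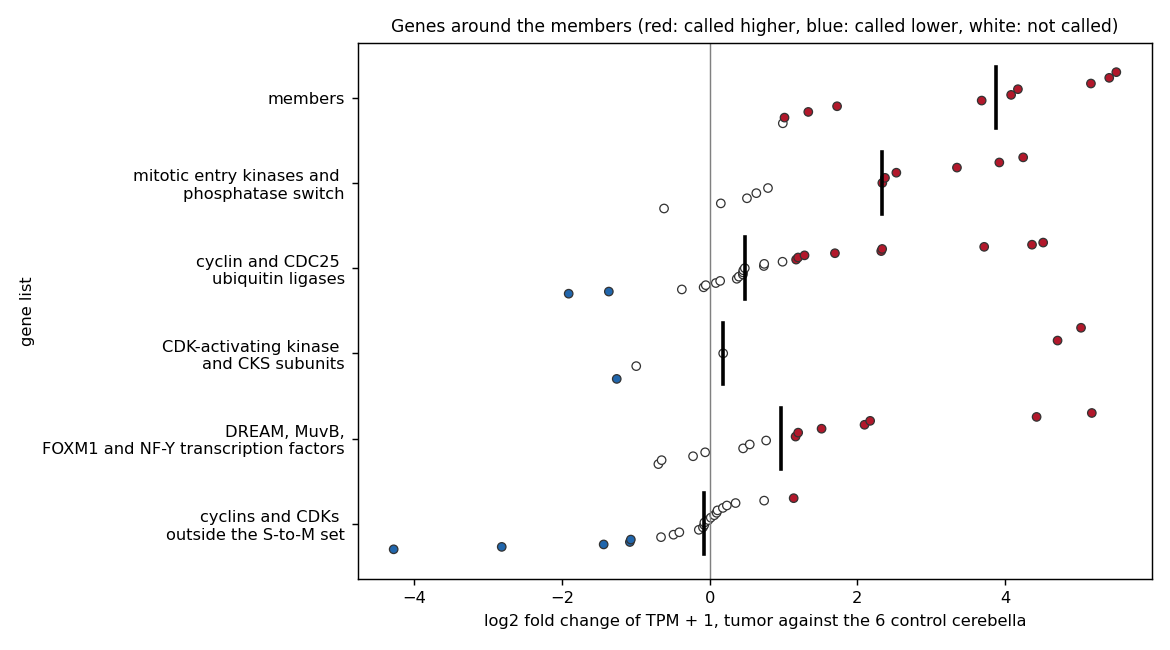
Log2 fold change of TPM + 1 between tumors and the 6 control cerebella (x axis) for the members and for 5 lists of related genes, with the median of each list as a black line. The members have a median of 3.88, and the cyclins and CDKs outside the S-to-M set are centred near 0, with Cdk5r2 at −4.28.

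Genes with the pattern most like each member were found by the root-mean-square difference of centred log2(TPM + 1) over the 12 samples, among 16488 genes. The closest genes were at 0.173 (Cenpa) and 0.196 (Cdca3) from Ccna2, 0.278 (Spc25) and 0.321 (Cenpa) from Ccnb1, and 0.177 (Gtse1) and 0.192 (Nusap1) from Ccnb2. Cdk1 was closest to Kif2c (0.170) and Cdca7 (0.171), and Cdc25c to Ttk (0.170) and Bub1 (0.220). Of these, Cenpa, Spc25, Kif2c, Ttk and Bub1 encode proteins of the centromere or kinetochore. The other members had neighbours of mixed kinds, namely Ticam2 (0.138) and Slfn9 (0.143) for Cdk2, Top3a (0.0516) and Ing5 (0.0679) for Cdc25a, Mapk7 (0.134) and Trp53 (0.156) for Cdc25b, Nol8 (0.0921) and Rnf138 (0.103) for Ccne2, and Psmg3 and Gpn2 (0.251 each) for Ccne1. All points share the same 12 libraries, and the measure says how alike the patterns are and nothing of shared control.

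Several members overlap other genes in the annotation. The span of Cdk2 lies within that of Pmel over all 7114 bases, and Pmel was at 0.591 to 1.07 TPM in tumors, opposite in direction to Cdk2. Ccne2 overlaps Ints8 over 5622 bases, and Ints8 was at 30.2 to 38.9 TPM in tumors and 16.9 to 24.4 TPM in controls. Ccna2 overlaps Exosc9 over 863 bases, and Exosc9 was at 44.4 to 53.6 TPM in tumors and 25.2 to 31.3 TPM in controls. Cdc25a overlaps the microRNA gene Mir7089 over 68 bases, and Mir7089 was at 5.22 to 31.4 TPM in tumors and 0 to 10.5 TPM in controls. Cdc25c overlaps the pseudogene Gm3550 over 647 bases, and Ccne2 also overlaps the noncoding gene A630034I12Rik over 798 bases. These last genes had no TPM here. The strand setting of the quantification is not given in the sources used here, so reads shared by overlapping genes cannot be told apart. Ccnb1 and Ccnb2 have processed pseudogene copies, to which reads could also have been assigned, and no value for these was analysed here.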

How the data were processed

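RNA of flash-frozen tissue from 12 mouse samples was poly(A)-selected and sequenced by the authors, who quantified transcripts with Salmon 0.8.1 on the mm10 knownGene set and summed them to genes. The authors deposited TPM of 24091 genes and state no filter. TPM keeps no depth, so no counting interval is given, and the count test of the study (DESeq2) was not repeated. Here limma 3.58.1 (R 4.3.3, eBayes with trend) was run on log2(TPM + 1) for each gene that reached 1 TPM in 3 or more samples of the comparison, and p-values were adjusted by Benjamini and Hochberg's method over those genes. A call needed an adjusted p below 0.01 and a log2 fold change of 1 or more in either direction, as in the study's methods. Each of 4 comparisons used only its own groups. The model was tested on simulated data.

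The members and gene lists were chosen with earlier results of these data known. All members were named. In each list, the 3 called genes with the largest absolute log2 fold change and the tested gene with the smallest in tumor against control were named, and for likeness the 2 closest genes. Ccnf, Cdk7, Cdk8, Nfyb, Lin9, Tfdp1 and the markers and overlapping genes were named after their values were seen.

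Tumor and adjacent samples were paired by the mouse number in their titles. Deviations of the pairs from their group means correlated at 0.249 (GB344), 0.176 (GB359) and 0.152 (GB370) over 15845 genes. Alternatives changed the pseudocount, filter, scaling, variance model, samples in the fit, control group, thresholds, replicate block or left out each sample. Promoters and positions were from RefSeq on GRCm38.p6, the build of mm10, with 10 of 10 member identifiers matched. Python 3.11.15, numpy 2.4.6, pandas 2.3.3 and matplotlib 3.10.9 were used. No sample column was left unused.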

Additional observations from a re-analysis of the deposited data

Results flagged for a closer look

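The control cerebellum of GB512 (Brca2-mut;Trp53-WT) lay far from the other 5 controls for 4 members, with a gap to the next sample that exceeded Dixon's 95% critical value for 6 samples. In GB512 Ccna2 was at 11.2 TPM, Ccnb1 at 9.83 TPM, Cdk1 at 2.72 TPM and Cdc25c at 1.67 TPM. Chance places about 1 in 20 groups past this value, and the 4 genes come from the same library. The microglia, lymphocyte and endothelium marker sums and Mki67 were also highest in GB512, and the oligodendrocyte sum was lowest there. By single genes, 4 of 5 microglia, 1 of 5 lymphocyte and 2 of 5 endothelium markers were highest in GB512. The part of these cells in the member levels was not tested.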

How the results depend on the processing

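The 9 members called higher in tumor against control cerebellum stayed between 8 and 10 under every alternative, and leaving out each sample gave the same range of 8 to 10. The calls that changed were those of Ccne1 and Ccne2. In tumor against adjacent cerebellum, 1 member was called, and the number was 0 with a pseudocount of 0.1, with no minimum TPM and without the trend, 2 with median-of-ratios scaling, 4 with all 4 groups in one fit, 6 with quantile normalization, and 10 at an adjusted p under 0.05 with no fold minimum. Leaving out 1 sample at a time gave 0 to 5. With the mouse as a replicate block the number was 1, with Ccne1 in place of Cdk2, and no other member changed its call. In adjacent against control cerebellum, 0 members were called, 7 at an adjusted p under 0.05 with no fold minimum, and 0 to 7 when a sample was left out. Except for median-of-ratios scaling and quantile normalization, the share of all genes called was not determined for the alternatives. Counts without GB512 of members above the controls, or not overlapping between groups, were added after seeing the data. Between the control genotypes the number was 0 under every alternative. Some directions reversed among differences that were not called. For Ccne1 in adjacent against control cerebellum the log2 fold change ranged from −0.33 to 0.15 over the left-out samples. Between the control genotypes it ranged from −0.26 to 0.88 for Ccna2, −0.058 to 0.47 for Ccnb2, −0.31 to 0.18 for Ccne1 and −0.080 to 0.072 for Ccne2. Ccne1 was at 0.0092 with quantile normalization, and Ccne2 at 0.050 with median-of-ratios scaling and 0.074 with quantile normalization. The cause was not tested. Median-of-ratios scaling and quantile normalization moved the median of all genes in tumor against control from −0.11 to −0.01 and 0.04, and in tumor against adjacent from −0.14 to 0.02 and 0.12. Leaving out tumor GB344 called 0 of the cyclins and CDKs outside the set higher. Depth is unknown, so levels under 1 TPM rest on an unknown number of reads.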
